A study of Mus musculus with 4 samples.

Results

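CD8 T cells that carried the PD-1 transcript together with the Lag3 or Tim-3 transcript made up 609 of the 32396 cells kept from 4 single-cell libraries of CD45+ cells of mouse tumours, or 1.88%. They are called PD-1+ CD8 cells here, and the name refers to transcripts, not to protein. A cell was chosen from its raw unique molecular identifiers (UMIs, counts of distinct captured transcripts). It needed at least 2 UMIs of Cd3e, Cd3d and Cd3g together, at least 1 of Cd8a or Cd8b1, none of Cd4, Foxp3, Csf1r or Cd79a, at most 1 of Trdc, under 10 of the 3 C1q genes together and at most 1 of Mki67 and Top2a together. These limits gave 1546 gated CD8 cells. Among them a PD-1+ CD8 cell had at least 1 UMI of Pdcd1, which encodes PD-1, and at least 1 of Lag3 or of Havcr2, which encodes Tim-3. The levels of these 18 genes were therefore fixed by the choice and are given as description only.

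The tumours were grown under the skin from MC38, a mouse colon adenocarcinoma line, in mice aged 8 weeks and were taken on day 16. One group was the Ufl1 conditional knockout (cKO, 2 libraries) and the other wild type (WT, 2 libraries). Ufl1 encodes the ligase that attaches the small modifier UFM1 to proteins, and the series title places its ablation in T cells and links it to PD-1. Which promoter drives Cre, and which part of the gene is removed, is not given in the labels. Nor is it given whether each library is a separate animal or a pool, so the p-values measure only the spread between these libraries.

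PD-1, Lag3 and Tim-3 are inhibitory receptors that appear on CD8 T cells after antigen recognition and stay on cells whose antigen persists, as in tumours and chronic infection. Cells that keep them enter a state called exhaustion, in which the transcription factor Tox is raised, the memory and progenitor factor Tcf7 (TCF-1) is lost step by step and Tim-3 marks the later stage. Each T cell carries 1 rearranged receptor, made of an alpha and a beta chain, and passes it on when it divides, so cells that share variable (V) segments are candidates for having grown from 1 cell.

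Members came unevenly from the libraries, with 65 and 204 in cKO replicates 1 and 2 and 30 and 310 in WT replicates 1 and 2. Values listed for 4 libraries below follow that order. WT replicate 2 alone held 50.9% of the members. The libraries had 64141857 to 79747752 UMIs, and the members' summed counts were 622323 and 2145722 UMIs in the cKO libraries and 201398 and 3090467 UMIs in the WT libraries. The median member had 8800, 9943, 6073 and 9639 UMIs. The RNA of cKO replicate 2 stood apart from the other libraries. Xist, the transcript of X inactivation, had 0 and 750 UMIs in the members of the cKO libraries and 0 and 6 UMIs in those of the WT libraries. Ddx3y, a gene of the Y chromosome, had 25 and 0 UMIs in the cKO libraries and 9 and 205 UMIs in the WT libraries. Genotype results that passed the test, and the shares, are therefore also given without cKO replicate 2, and the part of this split in them was not tested.

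Markers that the choice did not use were those of T cells. Trac, the constant segment of the alpha chain, had 185, 168, 248 and 185 CPM in the members' summed UMIs (CPM are counts scaled to a common total per library), and Cd5, a T cell surface receptor, had 230, 124, 199 and 113 CPM. Some markers of other cells were at or near 0 UMIs. Ms4a1 (B cells) and Adgre1 (macrophages) had 0 UMIs in all 4 libraries, and Cd40lg (helper T cells) had 2, 0, 2 and 1 UMIs. Others were counted. Lyz2, the lysozyme of macrophages, had 22 and 226 UMIs in cKO members and 11 and 379 UMIs in WT members, and Klrb1c, an NK cell receptor, had 1 and 45 UMIs in cKO members and 7 and 56 UMIs in WT members. The 10 NK cell marker genes summed to 283 and 1199 CPM in cKO members and to 422 and 331 CPM in WT members, so 1 cKO library was the highest. The B cell markers summed to 57.8 and 64.8 CPM in cKO members and to 69.5 and 39.2 CPM in WT members. Of 902 barcodes seen in more than 1 library, 19 belonged to members, and none was a member in both libraries.

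The receptor V segments of the commonest beta and alpha pair among each library's members, and Trbv15, are shown first. The results on shared receptors turn on them. Each line gives the last 60 bases of the segment's transcript in GENCODE M21, 5′ to 3′, where the V segment meets the junction that differs between clones. Capitals mark the cysteine codon with which the antigen-contacting loop begins. Trbv segments belong to the beta chain and Trav segments to the alpha chain. All lie on the plus strand, the beta segments on chromosome 6 and the alpha segments on chromosome 14 of GRCm38.
Trbv16 (chr6:41151740-41152230): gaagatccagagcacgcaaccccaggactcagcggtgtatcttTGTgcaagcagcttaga
Trbv15 (chr6:41141188-41141658): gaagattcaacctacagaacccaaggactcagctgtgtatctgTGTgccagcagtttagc
Trbv20 (chr6:41188273-41188977): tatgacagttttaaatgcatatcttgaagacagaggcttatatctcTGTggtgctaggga
Trbv13-3 (chr6:41130147-41130585): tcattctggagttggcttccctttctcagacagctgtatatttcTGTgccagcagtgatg
Trav12-2 (chr14:53616315-53616914): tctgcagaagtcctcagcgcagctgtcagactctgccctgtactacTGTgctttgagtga
Trav12-1 (chr14:53538191-53538738): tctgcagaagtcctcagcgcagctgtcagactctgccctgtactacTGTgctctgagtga
Trav1 (chr14:52427928-52428876): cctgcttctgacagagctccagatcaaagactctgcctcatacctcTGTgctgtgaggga
Trav12n-3 (chr14:53240745-53241244), Trav12-3 and Trav12d-3 end in the same 60 bases as Trav12-1, so counts of single Trav12 genes are uncertain. The Trav7-4 segment also belongs to a family of near-identical copies.

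Among gated CD8 cells the members' share differed more between the WT libraries than between the genotypes. PD-1+ CD8 cells were 36.5% of gated CD8 cells in cKO replicate 1 (95% exact binomial interval 29.4% to 44.0%) and 38.0% in cKO replicate 2 (33.9% to 42.2%). They were 14.2% in WT replicate 1 (9.80% to 19.7%) and 50% in WT replicate 2 (46.0% to 54.0%). Intervals of this kind cover counting error only. The 2 cKO libraries lay between the 2 WT libraries, so the groups overlapped. The means were 37.3% ± 1.04 in cKO and 32.1% ± 25.3 in WT (SD, n = 2 each), a difference of 5.14 percentage points with an exact two-sided permutation p = 1, where the smallest p that 2 against 2 libraries allow is 0.33. Without WT replicate 2 the difference was 23.0 percentage points, without WT replicate 1 it was −12.7, and without cKO replicate 2 it was 4.41. Of all kept cells, members were 0.836% and 2.55% in the cKO libraries and 0.413% and 3.31% in the WT libraries, again with overlap (exact permutation p = 1, and a difference of −1.03 percentage points without cKO replicate 2).

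**Figure D1:**
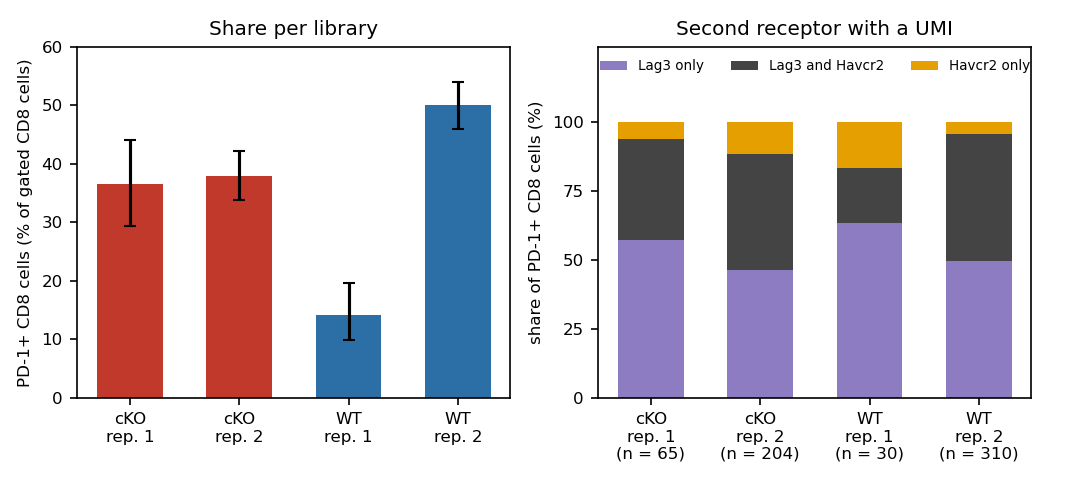
The left panel plots PD-1+ CD8 cells as a percentage of gated CD8 cells in each library, with 95% exact binomial intervals, and the right panel plots how many members in each library carried Lag3 only, both Lag3 and Havcr2, or Havcr2 only, as percentages of members. The cKO libraries stand at 36.5% and 38.0% and the WT libraries at 14.2% and 50%.

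Lag3 was the commoner route into the group. In the cKO libraries 37 of 65 and 94 of 204 members carried Lag3 without Havcr2, and in the WT libraries 19 of 30 and 153 of 310 did. Havcr2 without Lag3 was seen in 4 and 24 cKO members and in 5 and 14 WT members. Both transcripts were seen in 36.9% and 42.2% of cKO members and in 20% and 46.1% of WT members, with the lowest share in the library with the fewest members. The median member had 4, 7, 2 and 9 Pdcd1 UMIs, and the highest had 30, 41, 31 and 36.

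At the edge of the choice, 5, 13, 8 and 9 members had exactly 1 UMI of Pdcd1 and 1 of Lag3 or Havcr2. Just outside it, 12, 38, 21 and 27 cells had 1 UMI of Pdcd1 and none of the other receptors, and 13, 24, 25 and 21 cells had none of Pdcd1 and 1 of Lag3 or Havcr2. In all, 232 gated CD8 cells carried Pdcd1 with neither of the other receptors, and 705 carried no Pdcd1 UMI. The 705 are called Pdcd1-0 cells below. Of these, 22 of 81, 47 of 251, 38 of 140 and 34 of 233 had a UMI of Lag3 or Havcr2. In summed UMIs, Lag3 stood at 385, 291, 262 and 345 CPM in members and at 57.4, 41.0, 53.7 and 37.2 CPM in Pdcd1-0 cells. Havcr2 stood at 112, 101, 79.6 and 106 CPM in members and at 13.9, 14.1, 12.8 and 8.42 CPM in Pdcd1-0 cells.

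Members shared receptor V segments more often than Pdcd1-0 cells of the same tumours, in all 4 libraries. The measure is the chance that 2 cells drawn from 1 library and class carry the same segment, which does not grow with the number of cells. For the beta chain it was 25.01%, 15.03%, 14.8% and 30.9% in members, against 6.96%, 5.78%, 7.70% and 6.46% in Pdcd1-0 cells. All 4 members' values lay above all 4 values of Pdcd1-0 cells. The means were 21.4% ± 7.91 and 6.73% ± 0.811 (SD, n = 4 each), a difference of 14.7 percentage points that was positive in 4 of 4 libraries. The exact two-sided sign-flip permutation test gave p = 0.13, the smallest it can give over 4 libraries. A beta V segment was assigned in 62 of 65, 181 of 204, 28 of 30 and 290 of 310 members. Cells with Pdcd1 but neither Lag3 nor Havcr2 had 10.8%, 7.10%, 8.96% and 8.52% for the beta chain, below the members of each library.

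For the alpha chain the chance was 4.29%, 13.7%, 13.8% and 15.3% in members and 3.85%, 2.71%, 5.999% and 2.76% in Pdcd1-0 cells. The difference was 7.94 percentage points on average and positive in 4 of 4 libraries (exact sign-flip permutation p = 0.13), but in cKO replicate 1 the classes were close. For both chains together, cells shared the pair with a chance of 2.06%, 9.68%, 13.0% and 13.5% in members and of 0.994%, 0.364%, 4.09% and 0.290% in Pdcd1-0 cells. That difference was 8.13 percentage points, also positive in 4 of 4 libraries (exact sign-flip permutation p = 0.13). Cells with Pdcd1 but neither of the other receptors had 3.81%, 2.61%, 9.24% and 3.48% for the alpha chain and 3.81%, 0.798%, 4.55% and 0.976% for the pair. For the pair they stood above the members in cKO replicate 1, where 21 such cells had both chains, and below them in the other libraries. Cycling CD8 cells had 0.202%, 3.92%, 2.52% and 2.81% for the pair, below the members of each library. Against Pdcd1-0 cells they stood higher in replicate 2 of each genotype and lower in replicate 1. V segments stand in for a clone here and are not clonotypes, since the junction was not read and the J segments had 0 UMIs.

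**Figure D2:**
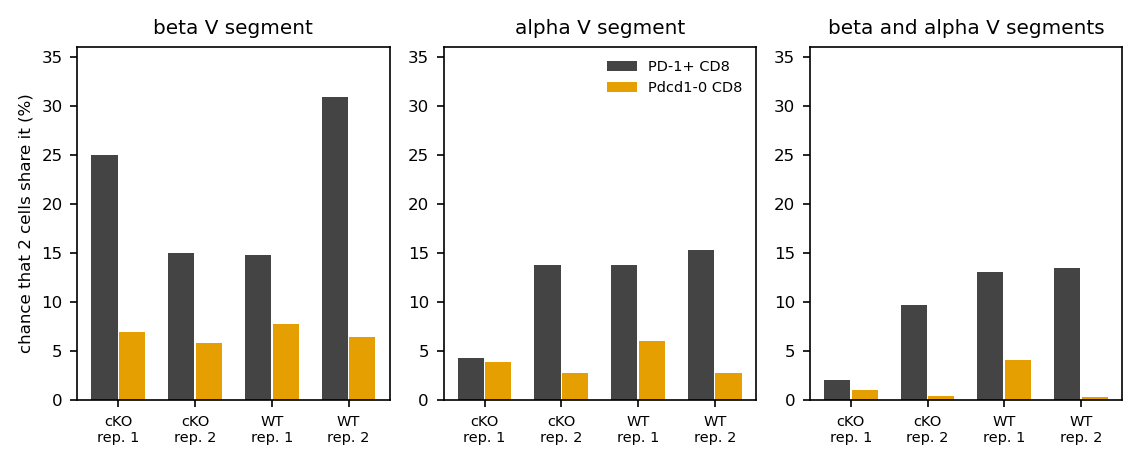
Each panel plots, for the 4 libraries, the chance in percent that 2 cells of a class share the beta V segment, the alpha V segment or both, with PD-1+ CD8 cells in dark and Pdcd1-0 CD8 cells in orange. The dark values lie above the orange ones in every library and panel, with the closest pair for the alpha V segment of cKO replicate 1 (4.29% and 3.85%).

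The leading pairs differed in name between the libraries, but those of both cKO libraries joined Trbv16 to a Trav12 segment. Counts of single Trav12 genes are uncertain, and so are counts of pairs that hold one. In cKO replicate 1, Trbv16 was assigned in 30 of 62 members and in 6 of 73 Pdcd1-0 cells, and its commonest partner, Trav12n-3, came with it in only 4 of the 36 members with both chains. In cKO replicate 2, Trbv16 with Trav12-2 was found in 38 of 134 members (28.4%, 95% exact interval 20.9% to 36.8%) and in 1 of 145 Pdcd1-0 cells. Trbv15 with Trav10 followed in the same library, with 13 of 134 members and 0 of 145 Pdcd1-0 cells, where 0 allows a share of up to 2.07%.

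In WT replicate 1, Trbv13-3 with Trav12-1 was found in 9 of 24 members (37.5%, interval 18.8% to 59.4%) and also in 9 of 93 Pdcd1-0 cells. In WT replicate 2, Trbv20 with Trav1 was found in 73 of 231 members (31.6%) and in 0 of 137 Pdcd1-0 cells, which allows up to 2.19%. A pair of Trbv16 with Trav7-4 (27 members) and one of Trbv20 with Trav12-3 (22 members) came next there, and neither was found in Pdcd1-0 cells of that library. Of the 4 leading pairs, that of WT replicate 1 was the 1 carried by more than 1 Pdcd1-0 cell of its library.

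The leading pairs of cKO replicate 2 and of both WT libraries were also found in cycling CD8 cells. The limit on Mki67 and Top2a had kept these cells out of the group. Trbv16 with Trav12-2 was carried by 19 of 109 cycling cells in cKO replicate 2, and Trbv13-3 with Trav12-1 by 5 of 35 in WT replicate 1. Trbv20 with Trav1 was carried by 15 of 117 cycling cells in WT replicate 2. Few pairs recurred between libraries: of the pairs carried by at least 2 members, which numbered 6, 18, 1 and 18, only 1, 2, 0 and 1 were carried by at least 2 members of another library.

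Members were next compared with Pdcd1-0 CD8 cells across all genes. The cells' summed UMIs were compared with library as a block by edgeR's quasi-likelihood test, with Benjamini-Hochberg adjustment over all genes tested (threshold 0.05), here and in the comparisons that follow. Of 7818 genes tested, 1219 (15.6%) were called, 558 (7.14%) higher in members and 661 (8.45%) lower. The classes did not overlap in 527 of the 7818 genes with members higher and in 544 with members lower. Over all genes the median log2 fold change was −0.01. CPM values are scaled within each comparison, so the same gene differs slightly between comparisons. Depth differed too, since the median Pdcd1-0 cell had 7178, 5415, 5250.5 and 6360 UMIs. With every cell thinned to 2000 UMIs, 548 of 4453 genes tested were called. Without cKO replicate 2 the count was 521 of 6592, and without WT replicate 2 it was 735 of 6729.

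The genes that rose most included surface receptors and secreted factors. Klrh1, a lectin-like receptor of the NK gene complex, had 123, 97.0, 18.7 and 75.5 CPM in members and 3.48, 0.64, 0 and 2.81 CPM in Pdcd1-0 cells, a log2 fold change of 5.53 ± 0.31 (SE; edgeR adjusted p = 3.71e-07). Gldc, an enzyme of glycine breakdown, had 107, 48.3, 18.7 and 38.6 CPM in members and 0, 1.28, 0 and 2.81 CPM in Pdcd1-0 cells (log2 fold change 5.01 ± 0.41). Neither gene overlapped between the classes, and both were lowest among members in WT replicate 1. Tnfrsf9, which encodes the activation-induced costimulatory receptor 4-1BB, had 669, 892, 361 and 1067 CPM in members and 59.1, 74.9, 52.5 and 129 CPM in Pdcd1-0 cells (log2 fold change 3.24 ± 0.14, edgeR adjusted p = 5.23e-08), again without overlap. Csf1, the macrophage growth factor, had 46.3, 78.4, 14.0 and 75.1 CPM in members, against 6.95, 7.68, 5.83 and 2.81 CPM in Pdcd1-0 cells (log2 fold change 3.42 ± 0.31).

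Further leading genes were Igfbp7, a secreted binding protein (log2 fold change 3.64), Nrgn, a calmodulin-binding protein (3.46), the membrane protease Adam8 (3.17), the transcript Gm36723 (2.86) and the hypoxia-induced lipid droplet protein Hilpda (2.85). The phosphatases Dusp14 and Dusp4, which dampen kinase signals, rose by log2 fold changes of 3.11 and 2.71. Mt1, a metallothionein that binds zinc, had 259, 254, 18.7 and 293 CPM in members and 33.0, 35.8, 16.3 and 32.3 CPM in Pdcd1-0 cells (log2 fold change 2.80 ± 0.23). It was called, yet the member value of WT replicate 1 lay within the range of Pdcd1-0 cells.

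The leading genes that fell included a trafficking receptor and several transcription factors. S1pr1, the receptor that guides T cells out of tissue, had 20.8, 2.66, 23.4 and 1.65 CPM in members and 93.9, 65.3, 77.0 and 59.6 CPM in Pdcd1-0 cells (log2 fold change −3.65 ± 0.38, edgeR adjusted p = 4.76e-05). Lef1, a partner of TCF-1, had 20.8, 5.76, 14.0 and 6.26 CPM in members and 146, 99.2, 125 and 148 CPM in Pdcd1-0 cells (−3.92 ± 0.24). The classes did not overlap for either gene.

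Tcf7 had 68.7, 13.7, 42.1 and 12.2 CPM in members and 221, 159, 158 and 147 CPM in Pdcd1-0 cells, a log2 fold change of −2.86 ± 0.28 (edgeR adjusted p = 2.48e-05). Within the members it stood higher in 1 library of each genotype (cKO replicate 1 and WT replicate 1) than in the other. Igfbp4, a binding protein of insulin-like growth factors, had 1.60, 0, 4.68 and 1.32 CPM in members and 111, 35.8, 84.0 and 128 CPM in Pdcd1-0 cells (−6.40 ± 0.32). Klra7, an NK receptor of a family with near-identical copies and therefore uncertain as a single gene, fell by a log2 fold change of −4.92. The chromatin organiser Satb1 (−2.56), the transcription factor Klf3 (−2.83), Nsg2 (−3.98), Fam241a (−3.32), Ripor2 (−2.32) and the transcript Gm2682 (−2.30) were among the other leading genes that fell. All 24 leading genes kept their call in every setting in which they were tested, 11 or 12 settings each.

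**Figure D3:**
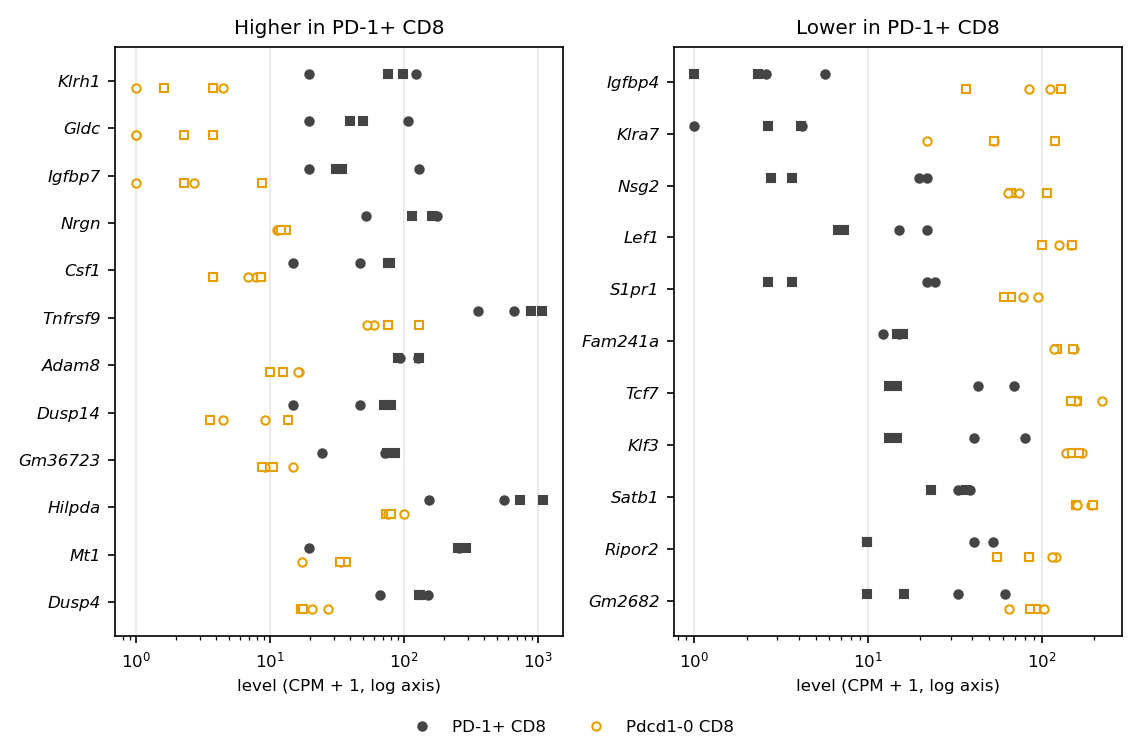
Summed expression of the 12 leading genes that were higher (left) and 11 of the 12 that were lower (right) in PD-1+ CD8 cells, as CPM + 1 on a log axis, with 1 point per library. Filled dark points are PD-1+ CD8 cells and open orange points Pdcd1-0 CD8 cells, circles are replicate 1 and squares replicate 2. Klrh1 reaches 123 CPM in members and at most 3.48 CPM in Pdcd1-0 cells.

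Inhibitory receptors other than those that defined the group rose as well. Of 15 genes of inhibitory receptors and ectoenzymes that were tested, 11 were higher in members and 2 lower, with a median log2 fold change of 1.17. Over all genes tested 7.14% were higher and 8.45% lower, the shares to set beside this and the group counts that follow. Ctla4, a competitor of CD28 for its ligands, had 238, 221, 192 and 238 CPM in members and 80.0, 35.2, 56.0 and 37.2 CPM in Pdcd1-0 cells (log2 fold change 2.23 ± 0.18). Klrc1, which encodes the inhibitory receptor NKG2A, had 494, 362, 318 and 520.4 CPM in members and 141, 174, 114 and 121 CPM in Pdcd1-0 cells (1.61 ± 0.16). The classes did not overlap for either gene. Cd244a (2.32), Cd200 (2.78), Tigit (1.17) and Entpd1, which encodes the ectoenzyme CD39 (1.19), rose too. The 2 that fell were Klrg1, a receptor of short-lived effector cells (−2.32), and Cd160 (−0.88); both calls were lost in some settings.

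Of 17 exhaustion and effector transcription factors, 7 were higher and 1 lower (median log2 fold change 0.51). Tox had 145, 116, 140.5 and 153 CPM in members and 48.7, 32, 44.3 and 41.4 CPM in Pdcd1-0 cells (log2 fold change 1.77 ± 0.13, edgeR adjusted p = 4.33e-06), with no overlap. Rbpj, the transcription factor of Notch signalling, and Nr4a2, induced by receptor stimulation, rose by log2 fold changes of 1.64 and 0.93. Eomes, which was the 1 that fell, had −0.93. All 15 genes of the naive, memory and progenitor group fell, Bach2, a repressor of effector genes, among them (−2.91), with a median of −1.98.

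Shares of cells with a UMI were compared after each cell was thinned to 2000 UMIs, which left 63, 199, 28 and 303 members and 77, 231, 131 and 221 Pdcd1-0 cells. A Tox UMI was found in 20.6%, 21.6%, 21.4% and 26.7% of members and in 6.49%, 4.76%, 9.92% and 9.05% of Pdcd1-0 cells. A Tcf7 UMI was found in 11.1%, 3.02%, 10.7% and 1.65% of members and in 37.7%, 25.5%, 26.7% and 22.2% of Pdcd1-0 cells. In B cells of the same libraries the shares were at most 0.39% for Tox and at most 1.68% for Tcf7. Without thinning, Tox was found in 55.4%, 58.8%, 43.3% and 63.5% of members and Tcf7 in 27.7%, 8.33%, 16.7% and 4.84%.

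Cytotoxic genes did not move as a block. Of 15 tested, 5 were higher and 3 lower (median log2 fold change 0.26). Prf1, the pore-forming perforin, had 91.1, 154, 65.6 and 181 CPM in members and 53.9, 42.2, 33.8 and 37.9 CPM in Pdcd1-0 cells (1.67 ± 0.21), with no overlap. Nkg7, a protein of cytotoxic granules (0.29), and Serpinb9, an inhibitor of granzyme B (0.78), rose less, and the Serpinb9 call was lost without cKO replicate 2 or WT replicate 2. Gzmb, the main apoptosis-inducing granzyme, had 406, 1397, 1152 and 1821 CPM in members and 709, 1047, 719 and 758 CPM in Pdcd1-0 cells, a log2 fold change of 0.42 ± 0.23 that did not pass the test (edgeR adjusted p = 0.256). Among members it was lowest in cKO replicate 1, the 1 library in which it stood below Pdcd1-0 cells.

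The 3 that fell were other granzymes. Gzma, a granzyme with a separate substrate range, had 33.6, 59.8, 576 and 145 CPM in members and 979, 783, 299.9 and 446 CPM in Pdcd1-0 cells (−2.23 ± 0.65, edgeR adjusted p = 0.033). The classes overlapped through WT replicate 1, and the call was lost without either cKO library, where the log2 fold change was −1.55 (without replicate 1) and −1.61 (without replicate 2). Gzmk (−0.76) and Gzmm (−2.92) also fell, and these calls were lost in some settings as well.

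Of 13 cytokines and chemokines, 9 were higher and 1 lower, with a median log2 fold change of 1.66. Ifng, the interferon that activates macrophages and antigen presentation, had 735, 487, 1246 and 388 CPM in members and 176, 284, 146 and 109 CPM in Pdcd1-0 cells (1.90 ± 0.26, edgeR adjusted p = 2.79e-04). Xcl1, which attracts cross-presenting dendritic cells, had 1007, 564, 1283 and 686 CPM in members and 189.5, 307, 196 and 373 CPM in Pdcd1-0 cells (1.66 ± 0.26). Ccl4, a chemokine that attracts T cells and monocytes, had 1259, 618, 1395 and 675 CPM in members and 139, 371, 215 and 249.8 CPM in Pdcd1-0 cells (1.94 ± 0.30). In all 3 genes the members' lowest value lay above the highest of Pdcd1-0 cells, and the members of cKO replicate 1 and WT replicate 1 stood above those of the other libraries.

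Ccl3, a chemokine of the same family, had 344, 37.7, 403 and 87.7 CPM in members and 6.95, 18.6, 15.2 and 33.7 CPM in Pdcd1-0 cells (2.71 ± 0.49). Lta, the cytokine lymphotoxin alpha, rose by 1.34, and Spp1, which encodes osteopontin, by 2.78 on the log2 scale. Ccl5, which memory and effector cells store in quantity, was the 1 that fell, with 3688, 1115, 5890.5 and 1960.4 CPM in members and 5527, 7097, 6732 and 5216 CPM in Pdcd1-0 cells (−1.20 ± 0.28); it overlapped and was not called by DESeq2 or without the library block.

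Costimulatory receptors were more often higher than lower in the same comparison, with 6 higher and 1 lower of 16 tested (median log2 fold change 0.25). The log2 fold change was positive in 12 of the 16. Beside Tnfrsf9, Tnfrsf4, which encodes OX40, had 125, 108, 28.1 and 90.0 CPM in members and 22.6, 8.32, 12.8 and 16.8 CPM in Pdcd1-0 cells (2.68 ± 0.25). Il2ra, the alpha chain of the interleukin 2 receptor, rose by 1.99; it was also the 1 tested gene of the gamma-delta and CD4 marker group. Cd7, a T cell surface receptor, had 67.1, 90.8, 155 and 66.2 CPM in members and 216, 374, 387 and 189 CPM in Pdcd1-0 cells (−1.68 ± 0.13). Of 17 homing and residency genes, 5 were higher and 4 lower. Cxcr6, a receptor that holds T cells in tissue, rose by 1.37 ± 0.11, and Rgs16, a brake on chemokine signalling, by 2.65 ± 0.23, while Cxcr4, the receptor of CXCL12, changed by −1.99 ± 0.19.

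Glycolysis and hypoxia genes rose together, with 14 higher and 1 lower of 19 tested and a median log2 fold change of 0.53. The glycolytic enzymes Tpi1 (1.16), Pgk1 (0.91) and Gapdh (0.53), the oxygen-regulated transcription factor Hif1a (0.94) and the mitophagy gene Bnip3 (1.88) were among those that rose. The 1 that fell was Pdk1, a kinase that restrains pyruvate oxidation (−0.86), a call lost in some settings. Hilpda had 559, 732, 155 and 1092 CPM in members and 99.1, 73.0, 75.9 and 80.0 CPM in Pdcd1-0 cells, and the members of WT replicate 1 were the lowest. Of 25 genes of oxidative phosphorylation, 3 were higher and 1 lower (median 0.03), where 7.14% and 8.45% of all genes tested were. Sizes were 0.40 for Ndufb9, 0.30 for Cox7c and −0.49 for Ndufa4, and each of these 3 calls was lost in some settings.

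Interferon response genes were more often lower than higher. None of 19 type I interferon genes was higher and 4 were lower (median −0.21), led by Oasl2 (−1.53 ± 0.16), with Oas2 (−1.18), Oas3 (−0.66) and Irf7 (−0.63), and the last 3 calls were lost in some settings. Of 20 interferon gamma response genes, 2 were higher and 6 lower (median −0.16), although Ifng itself was higher. Socs3, a feedback inhibitor of cytokine signals (−1.86), the transcription factor Irf1 (−0.82) and the GTPase Gbp2 (−1.01) fell. Irf8, a transcription factor better known from dendritic cells, had 198, 594, 126 and 398 CPM in members and 95.6, 116, 126 and 73.0 CPM in Pdcd1-0 cells (log2 fold change 1.67); the classes met at WT replicate 1 and DESeq2 did not call it. The proteasome subunit gene Psmb9 changed by 0.38.

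Of 19 genes of T cell receptor signalling, 4 were higher and 4 lower (median −0.02). The adaptor Sh2d2a (0.97) and the phosphatase SHP-1, encoded by Ptpn6 (0.88), rose, and Nfkbia, the inhibitor of NF-kappa-B (−0.64), fell. Of 20 dissociation and heat shock genes, 5 were higher and 4 lower (median −0.01); Junb (−0.60) and Fos (−0.96) fell and Hspa1b, whose reads can belong to its near-identical copy Hspa1a, rose (0.61). These genes respond to tissue digestion, and their part in the other changes was not tested. Of 19 ER stress genes, 1 was higher and 2 lower (median 0.15), near the shares over all genes tested (7.14% and 8.45%). Those called were the stress sensor Ern1 (1.20), Dnajb9 (−0.69) and Herpud1 (−0.65).

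None of 7 genes of UFM1 conjugation passed edgeR's test between members and Pdcd1-0 cells (median 0.08), and 1, Cdk5rap3, had an unadjusted p under 0.05. Ufl1 had 19.2, 20.8, 9.36 and 22.4 CPM in members and 10.4, 16.0, 15.2 and 18.9 CPM in Pdcd1-0 cells (log2 fold change 0.31 ± 0.25, edgeR adjusted p = 0.474). Cdk5rap3 (−0.53 ± 0.23) and Ddrgk1 (−0.25 ± 0.14), which form the ligase complex with Ufl1, did not pass either. Of 21 replication and cell cycle genes, 4 were higher and 2 lower (median −0.09), with Ccnb2 (1.70) and Birc5 (1.86) higher and Tubb5 lower (−0.77). The limit on Mki67 and Top2a was part of the choice and bounds this group.

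RNA of other cells differed between the classes. The myeloid marker genes had a median log2 fold change of −0.98 and 3 of 11 were lower in members; their summed level was 652 to 2601 CPM in cKO members and 953 to 2541 CPM in WT members, against 2865 to 4527 CPM in cKO and 978 to 4110 CPM in WT Pdcd1-0 cells. Of 6 NK marker genes, 2 were higher and 2 lower. In Pdcd1-0 cells of 1 cKO library the erythroid and tumour markers summed to 941 CPM, against at most 11.2 CPM in any library's members. Of the 2 B cell marker genes tested, 1 was lower, and the 1 erythroid or tumour gene tested did not pass. The part of such RNA in the gene differences was not tested.

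**Figure D4:**
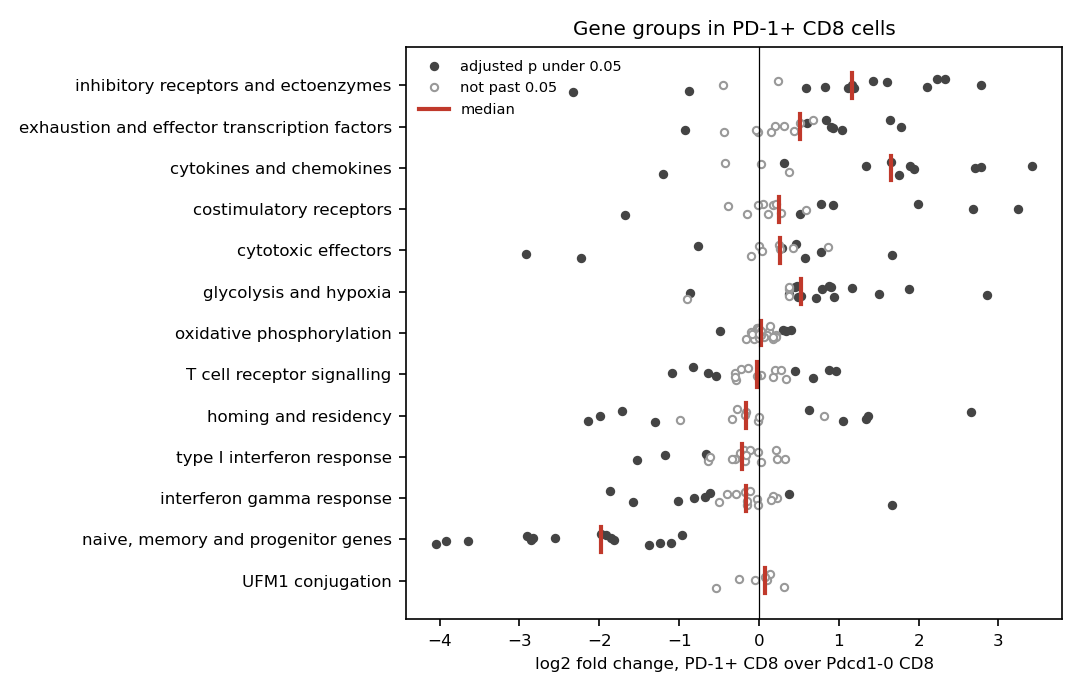
Log2 fold changes of PD-1+ CD8 over Pdcd1-0 CD8 cells for the genes of 13 groups, with 1 point per gene, filled where edgeR's adjusted p was under 0.05, and a red bar at each group's median. The naive, memory and progenitor group lies wholly below 0, with a median of −1.98, and cytokines and chemokines have the highest median, 1.66.

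Members were then set against other T cells of the tumours. Conventional CD4 cells (683 cells with Cd4 and no Foxp3) differed in 1743 of 7106 genes tested by edgeR (24.5%), 786 (11.1%) higher and 957 (13.5%) lower in members. The 2 comparisons share the members' sums, so the leading genes are given side by side as description: all 12 that were higher against Pdcd1-0 cells were called higher here too, and the 11 tested of the 12 lower ones lower. Klrh1 had 128, 102, 19.6 and 79.4 CPM in members and 0, 1.15, 0 and 0 CPM in CD4 cells, where it rests on a single UMI. Gldc had 111, 50.8, 19.6 and 40.6 CPM in members and 0, 1.15, 0 and 0 CPM in CD4 cells.

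Xcl1 (5.43 ± 0.17), Prf1 (5.29 ± 0.29) and Cd160 (4.98 ± 0.38) were the next highest over CD4 cells on the log2 scale. Helper T cell genes were lower in members. Il17a, the cytokine of Th17 cells, had 0, 0.932, 0 and 0 CPM in members and 119.9, 160.3, 509.6 and 233 CPM in CD4 cells, and Cd40lg had 3.32, 0, 9.80 and 0.347 CPM in members and 187, 156, 155 and 203 CPM in CD4 cells. Ccr4 (−6.09), Ccr6 (−6.05) and Igfbp4 (−6.07) followed. Tox was higher in members (1.99 ± 0.19), as were Tnfrsf9 (2.02 ± 0.26) and Dusp4 (1.03), and Tcf7 was lower (−2.80). Ctla4 had 247, 232, 201 and 250.3 CPM in members and 233, 255, 274 and 568 CPM in CD4 cells, a difference that did not pass (log2 fold change −0.44, edgeR adjusted p = 0.106).

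Regulatory T cells are known to carry many of the same activation receptors. These 202 cells (Foxp3 present) differed in 1504 of 5240 genes (28.7%), 680 (13%) higher and 824 (15.7%) lower in members. The members' sums are again those of the first comparison. Of the 12 leading genes that were higher in members there, 10 were tested here and 4 were called higher and 2 lower, while all 7 tested genes of the lower set were lower. Tnfrsf9 was one of those that turned round, with 743, 999, 402 and 1200.0 CPM in members and 1380.4, 1250.4, 1401 and 1583 CPM in regulatory T cells (log2 fold change −0.79 ± 0.18, edgeR adjusted p = 0.00388). Dusp4 was the other (−0.95). Ctla4 had 264, 247, 214 and 268 CPM in members and 1659, 1828, 1715 and 2281 CPM in regulatory T cells (−2.91 ± 0.12). Tox stayed higher in members, at 161, 129.5, 157 and 172 CPM, against 109, 96.2, 106 and 114 CPM in regulatory T cells (0.54 ± 0.15), but that call was lost with DESeq2, with thinned cells and without cKO replicate 1 or WT replicate 2.

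The genes furthest above regulatory T cells were St3gal6, a sialyltransferase with 44.3, 50.6, 78.4 and 45.6 CPM in members and 0, 4.01, 0 and 0 CPM in regulatory T cells, Gzmk (5.51, and 9.92 without WT replicate 1), Xcl1 (4.42) and Klrc1 (4.29), with Cd160 at 55.0, 32.8, 131 and 56.4 CPM in members and 0, 4.01, 4.08 and 0 CPM in regulatory T cells. Those furthest below were Rln3 (−6.85), Izumo1r, which encodes folate receptor 4 (−6.46), the cytokine Il10 (−6.44), Klrg1 (−5.91) and Lrrc32, which encodes GARP, the dock for latent TGF-beta (−5.70). All 10 kept their call in every setting in which they were tested (9 to 12 settings each), as did the 10 leading genes against CD4 cells (11 or 12 each). Pdcd1 was present in both comparison classes, at 153, 210, 153 and 303 CPM in CD4 cells and 400, 549, 225 and 467 CPM in regulatory T cells.

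Within the members, cells with a Havcr2 UMI were set against those with none, which entered through Lag3. Only 30 of 5986 genes were called (0.501%), 16 (0.267%) higher and 14 (0.234%) lower in Havcr2+ members. The count was 8 of 2039 genes tested with thinned cells and 63 of 6001 without the highest doublet scores. It was 18 of 7529 without cKO replicate 1, 12 of 4071 without cKO replicate 2 and 4 of 4203 without WT replicate 2. Of 12 cytokines and chemokines tested, 2 were higher and 0 lower (median log2 fold change 0.43), and of 15 cytotoxic effectors 3 were higher and 0 lower (median 0.12), where the median of all genes was −0.00. Ccl3 had 760.2, 55.9, 1139 and 128 CPM in Havcr2+ members and 12.8, 16.7, 15.9 and 53.5 CPM in Havcr2-0 members (log2 fold change 2.79 ± 0.45, edgeR adjusted p = 0.0088), and the log2 fold change was 2.08 without cKO replicate 1 and 4.26 without WT replicate 2. Ccl4 had 2666, 877, 3227 and 881 CPM in Havcr2+ members, against 154, 333, 476 and 532 CPM in Havcr2-0 members (2.03 ± 0.34). The classes did not overlap for either gene, though for Ccl3 they came close through cKO replicate 2 and WT replicate 2. Over all 5986 genes they did not overlap in 84 with Havcr2+ members higher and in 87 with these lower.

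Prf1 had 119, 231, 122 and 280.4 CPM in Havcr2+ and 77.1, 63.3, 39.7 and 90.2 CPM in Havcr2-0 members (1.55 ± 0.18), and Gzmb had 558, 1693, 1654 and 2249.5 CPM in Havcr2+ and 318, 1198, 984 and 1587 CPM in Havcr2-0 members (0.61 ± 0.12). Gzmb was higher in Havcr2+ members within each library, yet the classes overlapped through cKO replicate 1, which was lowest in both. Gzmf, a granzyme with near-identical copies, had 515, 936, 0 and 279.7 CPM in Havcr2+ members and 77.1, 45.4, 0 and 101 CPM in Havcr2-0 members (2.73), with WT replicate 1 at 0 in both. Irf8 (0.85), Mt1 (1.30), Dusp14 (0.91), Gm36723 (1.25) and Ifitm1 (1.24) were higher too.

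Tcf7 led the genes that were lower, with 14.4, 5.51, 13.6 and 0 CPM in Havcr2+ members and 125, 28.7, 63.5 and 28.3 CPM in Havcr2-0 members (−3.26 ± 0.44, edgeR adjusted p = 0.00199). Ly6c2, a marker of memory cells with a near-identical neighbour, had 476, 881, 1654 and 721 CPM in Havcr2+ members and 1426, 1848, 2356 and 1131 CPM in Havcr2-0 members (−0.95 ± 0.15), lower within each library. Cd7 (−1.44), the chemokine receptor Cxcr3 (−1.68), Emb (−1.07), Daxx (−1.07), Klrh1 (−0.85) and the interferon-induced genes Gbp2 (−1.36), Zbp1 (−0.77) and Igtp (−0.71) were lower as well. Tox (−0.27, edgeR adjusted p = 0.728) and Ifng (1.00, edgeR adjusted p = 0.115) did not pass. Of the 10 genes named by size, Ccl3 and Tcf7 alone kept their call in every setting in which they were tested; these settings numbered 6 to 10, since some genes were given no test in the others.

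By group, all 18 type I interferon genes tested had a negative log2 fold change in Havcr2+ members (median −0.64, against −0.00 over all genes), of which 1, Zbp1, was called. Of 18 interferon gamma response genes, 1 was called higher and 2 lower (median −0.31), and of 8 naive and progenitor genes 2 were lower (median −0.77). All 17 glycolysis and hypoxia genes had a positive value, none of them called (median 0.22). Myeloid markers were positive in 9 of 11, also with none called (median 0.63), and summed to 642 to 3770 CPM in cKO and 970 to 2603 CPM in WT Havcr2+ members, against 661 to 837 CPM in cKO and 945 to 2470 CPM in WT Havcr2-0 members. NK markers, of which 2 of 5 were positive and none called, summed to 283 and 1711 CPM in cKO and 441 and 400 CPM in WT Havcr2+ members, against 283 and 426 CPM in cKO and 412 and 253 CPM in WT Havcr2-0 members. The part of these markers in the differences was not tested.

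Between genotypes, 1 gene passed the test in the members. Of 8177 genes tested by edgeR in members, 1 was called (0.0122%), and 85 had an unadjusted p under 0.05. DESeq2 also called 1. Without cKO replicate 2, 40 genes were called, and without cKO replicate 1, WT replicate 1 or WT replicate 2 there were 8, 5 and 7. Each such fit leaves 1 library in a genotype, which is assumed to vary like the others. The libraries of the 2 genotypes did not overlap in 2223 genes, or 27.2%. The targeted gene was Ufl1, with 12 and 47 UMIs (19.7 and 21.6 CPM) in cKO members and 2 and 68 UMIs (9.66 and 23.4 CPM) in WT members. The genotypes overlapped, but the counts pool the whole gene, so they check neither a deletion of single exons nor the labels.

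The 1 gene called was a receptor segment, Trbv15, whose sequence end is shown above. It had 126 and 661 UMIs (207 and 303 CPM) in cKO members and 0 and 1 UMIs (0 and 0.343 CPM) in WT members, a fitted log2 fold change of 9.32 ± 0.54 (edgeR adjusted p = 3.64e-04) that depends on the prior count. UMIs were also pooled over the 2 libraries of each genotype and scaled to the members' total. The ratio of cKO to WT was then 936, with an exact 95% interval of 167 to 37014 for counting error only. That interval takes each UMI as independent, so it covers neither the spread between cells nor that between libraries. A Trbv15 UMI was found in 5 of 65 and 68 of 204 cKO members (7.69% and 33.3%) and in 0 of 30 and 1 of 310 WT members. By the exact 95% interval, 0 of 30 allows a share of up to 11.6%, above the 7.69% found in cKO replicate 1. In cKO replicate 1, 2 cells held 91.3% of the UMIs, and in cKO replicate 2 the top 2 cells held 14.1%. As assigned segment it marked 2 of 62 and 24 of 181 cKO members and 0 of 28 and 0 of 290 WT members, 13 of the 24 with Trav10. Most of the 68 members of cKO replicate 2 with a Trbv15 UMI were thus assigned another beta segment or none.

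In Pdcd1-0 cells Trbv15 had 60.3 and 66.8 CPM in cKO and 160.2 and 63.4 CPM in WT libraries, which overlapped. Cycling CD8 cells also overlapped, with raw levels of 22.1 and 169 CPM in cKO and 24.3 and 1.26 CPM in WT libraries. The genotype difference in members differed from that in Pdcd1-0 cells by 9.42 ± 0.49 on the log2 scale (edgeR interaction test, adjusted p = 5.56e-06). It was the 1 gene of 8561 called in that test (0.0117%), with 185 at an unadjusted p under 0.05. Without cKO replicate 2 the log2 fold change in members was 8.94 and the interaction 9.09; these values rest on cKO replicate 1 alone, in which 2 cells held most of the UMIs. With only 2 libraries per genotype, the genotype and the receptors of single libraries cannot be told apart.

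The genes named next, 4 in each direction, were picked for the smallest unadjusted p between genotypes in members, receptor segments left out. None passed the test with every library in. Since a small p was the ground of choice, a lack of overlap in these genes is no further support. Gzma had 34.6 and 62.0 CPM in cKO members and 594 and 151 CPM in WT members (log2 fold change −2.76 ± 0.59, edgeR adjusted p = 1), without overlap. Gzma was also counted in cells with no Cd3 UMI. B cells had 525 and 90.6 CPM in cKO and 287 and 7.35 CPM in WT libraries. Macrophages and monocytes, chosen by Csf1r, had 146 and 56.1 CPM in cKO and 106 and 47.2 CPM in WT libraries. The part of such RNA in the members' values was not tested. The members' Gzma UMIs sat in few cells, as the top 2 cells held 47.6% and 37.8% of them in cKO members and 66.7% and 83.6% in WT members. Without cKO replicate 2 the value was −3.35 and it was called, as it was without WT replicate 2 (−3.53). Without WT replicate 1 it was −1.56 and without cKO replicate 1 −2.49, neither called. The genotype difference in Gzma was also not shown to differ between members and Pdcd1-0 cells, where it had 970.2 and 778 CPM in cKO and 298 and 447 CPM in WT libraries (interaction −3.70 ± 0.66, edgeR adjusted p = 0.213), although it was called without cKO replicate 2 (−4.46), WT replicate 1 (−2.49) or WT replicate 2 (−5.04).

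The heat shock gene Hspa1a had 4932 and 3299 CPM in cKO members and 2072 and 2104 CPM in WT members (0.98 ± 0.23), and its near-identical copy Hspa1b had 5080.2 and 3608 CPM in cKO and 2439 and 2695 CPM in WT members (0.76 ± 0.22). Zfand2a, induced by the same stress, had 60.9 and 54.2 CPM in cKO and 29.0 and 31.6 CPM in WT members, and Sema6d, a semaphorin, 64.2 and 74.4 CPM in cKO and 14.5 and 30.6 CPM in WT members. None of these overlapped and none passed (edgeR adjusted p = 1.00 for each). Outside the members, raw Hspa1a levels in B cells were 1676 and 2028 CPM in cKO and 1089 and 788 CPM in WT libraries. Pdcd1-0 cells had 2297 and 2294 CPM in cKO and 2109 and 976 CPM in WT libraries. In macrophages and monocytes the genotypes overlapped, with 6851 and 5573 CPM in cKO and 6366 and 3795 CPM in WT libraries. Whether the difference belongs to whole libraries was not tested. Sfn had 26.3 and 31.7 CPM in cKO members and 38.6 and 73.5 CPM in WT members, Tm6sf1 46.1 and 72.5 CPM in cKO and 96.6 and 115 CPM in WT members, and the linker histone gene H1f4 a log2 fold change of −1.15; these did not pass either. Without cKO replicate 2 the log2 fold changes were 1.23 for Hspa1a, 0.98 for Hspa1b, 0.97 for Zfand2a, 1.25 for Sema6d, −1.25 for Sfn and −1.24 for Tm6sf1, none of them called. Over all single libraries left out, Sema6d ranged over 1.20 to 2.27, Sfn over −1.30 to −0.37 and H1f4 over −1.71 to −0.28, and H1f4 was called at −1.71, without cKO replicate 2. In every gene group tested, 0 genes were called between genotypes by edgeR, where the median of all genes was 0.01. Group medians were 0.48 for naive and progenitor genes, −0.22 for cytotoxic effectors, 0.11 for type I interferon genes and −0.23 for the 7 UFM1 conjugation genes.

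**Figure D5:**
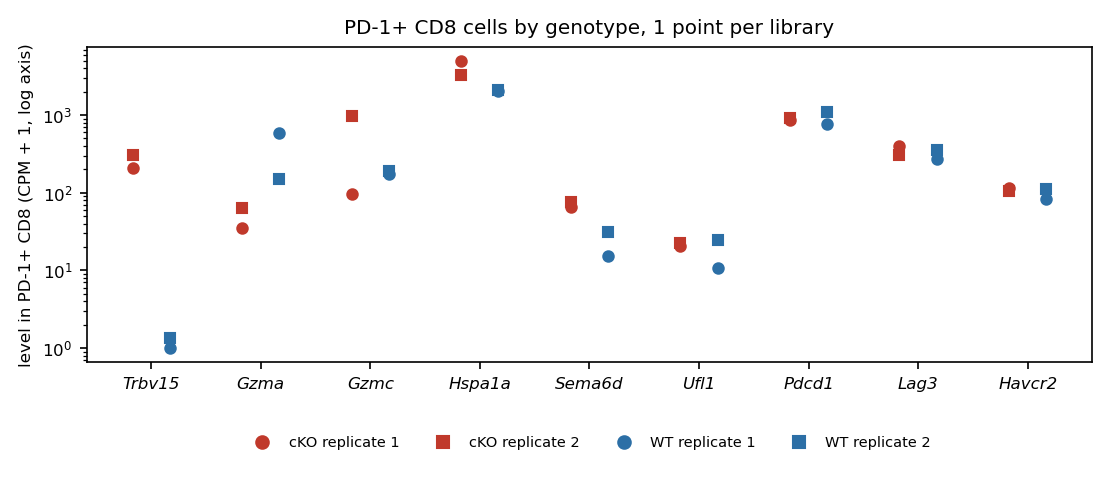
CPM + 1 on a log axis of 9 genes in PD-1+ CD8 cells, with cKO libraries in red on the left and WT libraries in blue on the right of each gene, circles for replicate 1 and squares for replicate 2. Trbv15 stands at 207 and 303 CPM in cKO and at 0 and 0.343 CPM in WT, while Ufl1, Pdcd1, Lag3 and Havcr2 overlap between the genotypes.

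Pdcd1, Lag3 and Havcr2 chose the members, so their levels by genotype were compared over all gated CD8 cells, which they did not choose. Pdcd1 had 436 and 526 CPM in cKO and 187 and 736 CPM in WT libraries (log2 fold change 0.05 ± 0.51, edgeR adjusted p = 1). Lag3 had 196 and 166 CPM in cKO and 76.2 and 226 CPM in WT libraries (0.22 ± 0.42), and Havcr2 had 55.8 and 57.7 CPM in cKO and 20.9 and 68.7 CPM in WT libraries (0.24 ± 0.43). All 3 were lowest in WT replicate 1 and highest in WT replicate 2. Without WT replicate 2, Pdcd1 (1.37) and Havcr2 (1.45) were called higher in cKO, and without WT replicate 1 all 3 turned negative (−0.61 for Pdcd1, −0.33 for Lag3 and −0.27 for Havcr2). Either fit rests on 1 WT library, assumed to vary like the others. Without cKO replicate 2 the values were −0.097 for Pdcd1, 0.34 for Lag3 and 0.22 for Havcr2, none called. The members' share of gated CD8 cells was likewise lowest in WT replicate 1 (14.2%) and highest in WT replicate 2 (50%), and in the members' own sums Pdcd1 stood at 864 and 919 CPM in cKO and 763 and 1113 CPM in WT libraries.

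Of 9480 genes tested over all gated CD8 cells by edgeR, 1 was called (0.0105%), and 175 had an unadjusted p under 0.05. The genotypes did not overlap in 2732 genes, or 28.8%. The called gene was Gzmc, a granzyme with near-identical copies, at 691 and 566 CPM in cKO and 129.9 and 129 CPM in WT libraries (2.28 ± 0.18, edgeR adjusted p = 0.0237). Over the fits without 1 library, that without cKO replicate 2 included, the log2 fold change was 2.13 to 2.41. Most of its UMIs in each cKO library came from a single cell, so these fits cannot test how far the result rests on such cells. A Pdcd1-0 cell held 856 of the 966 UMIs (88.6%) of cKO replicate 1, and a PD-1+ CD8 cell held 1485 of the 2463 UMIs (60.3%) of cKO replicate 2, whereas the top cells of the WT libraries held 16.1% and 27.1%. These 2 cells had 24616 and 34877 UMIs in all and 23 and 13 UMIs of the NK genes Klrb1c and Ncr1. Without the top cell of each library, Gzmc stood at 80.3 and 234 CPM in cKO and 110 and 89.3 CPM in WT libraries, the log2 fold change was 0.63 ± 0.41 and edgeR called 0 genes, with 177 at an unadjusted p under 0.05. In members alone Gzmc had 95.4 and 968 CPM in cKO and 174 and 190.3 CPM in WT libraries (1.56 ± 0.78), which overlapped and did not pass. A Gzmc UMI was found in 20% and 26.5% of cKO and in 46.7% and 22.9% of WT members. B cells carried one in 20.5% and 4.97% of cKO and in 29.7% and 11.2% of WT cells. Raw Gzmc levels in macrophages and monocytes were 143 and 147 CPM in cKO and 245 and 48.5 CPM in WT libraries. The part of such RNA in the CD8 values was not tested.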

How the data were processed

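The matrices deposited by the authors hold unnormalised UMI counts and were used as they stand. They come from Cell Ranger 6.1.1 per the file headers. CASAVA 1.8 and Seurat are listed in the submitters' processing notes. The genome build was not given in the sources used here. The tables held 32801 barcodes, of which 405 with under 300 genes or over 15% mitochondrial UMIs were dropped, and 0 columns of other series. Scrublet's automatic threshold marked 1, 2, 4 and 3 cells and was not used; the highest scores at 0.8% per 1000 cells, which included 0, 3, 0 and 14 members, were left out in an alternative. UMIs were summed per library and class and tested with edgeR 4.0.16 (TMM, filterByExpr, Benjamini-Hochberg), gate genes left out of calls. Gene coordinates and V segment ends are from GENCODE M21. Members, lists and tests were chosen with earlier results of these data known. Genes with at least 50 CPM were named by size against Pdcd1-0 cells (12 in each direction) and against other classes (5). Between genotypes the 4 with the smallest p in each direction were named, with the same limit. Per list, the 3 with the smallest p were named, and others were chosen after their values were seen. Receptor sharing was planned for V and J segments, and V segments were used alone. DESeq2 1.42.0 was the other tool. Sharing of V segments alone and of V segment pairs, and fits without the cell with most Gzmc UMIs, were added after the data were seen. Among the leading genes that fell, 1 is not reported here.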

Additional observations from a re-analysis of the deposited data

Results flagged for a closer look

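Trbv15 was the 1 result whose genotype difference differed between 2 classes of cells in a direct test. In PD-1+ CD8 cells it had 200.4 and 291 CPM in cKO and 0 and 0.329 CPM in WT libraries, and in Pdcd1-0 CD8 cells 60.3 and 66.8 CPM in cKO and 160.2 and 63.4 CPM in WT libraries (edgeR interaction test, adjusted p = 5.56e-06).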

How the results depend on the processing

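Counts of called genes varied with the tool, with depth and with the number of genes tested, which also changed between settings. Thinned cells left 4453 genes tested against Pdcd1-0 cells, 4533 against conventional CD4 cells, 2040 against regulatory T cells and 2039 by Havcr2. With all UMIs these numbers were 7818, 7106, 5240 and 5986. No filter on low counts raised the number to 13687 by Havcr2 and by genotype in members, 14826 over all gated CD8 cells and 14638 for the interaction. Values without 1 library follow the order cKO replicates 1 and 2, WT replicates 1 and 2. Against Pdcd1-0 cells DESeq2 called 694 and thinned cells 548, and leaving out a library gave 919, 521, 1378 and 735 genes. Against conventional CD4 cells these values were 988, 674 and 1293, 915, 1940 and 1130, and against regulatory T cells 925, 576 and 1078, 1107, 1717 and 873. The Havcr2 comparison gave 23 with DESeq2, 114 with no filter on low counts, 8 with thinned cells, 63 without the highest doublet scores and 18, 12, 38 and 4 without 1 library. Genotype calls in members numbered 44 with no filter and 8, 40, 5 and 7 without 1 library. Over all gated CD8 cells they numbered 54 with no filter, 0 with thinned cells (175 at an unadjusted p under 0.05 by edgeR), 0 without the cell with most Gzmc UMIs in each library and 11, 12, 5 and 37 without 1 library. The interaction gave 2 with DESeq2, 41 with no filter, 2 without the highest doublet scores, 2 with the stricter cell filter and 3, 7, 9 and 26 without 1 library. With the replicate number as a block, 16 genes were called in members, and the shares' differences stayed 5.14 and −0.170 percentage points. The labels do not say whether a number pairs libraries. Deviations of same-numbered libraries had a correlation of 0.165 in members and 0.137 over all gated CD8 cells. Without 1 library the share of gated CD8 cells gave −12.7 to 23.0 and that of kept cells −1.62 to 1.28 percentage points, with the sign turned at −12.7 (no WT replicate 1), 0.687 (no cKO replicate 1) and 1.28 (no WT replicate 2).

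The percentage of calls that were higher in members was 50.2% without the library block against 45.8% with it (Pdcd1-0 cells), and in the Havcr2 comparison the percentage higher in Havcr2+ members was 31.7% without the highest doublet scores and 34.8% with DESeq2 against 53.3%. Some genotype log2 fold changes that did not pass turned sign. Ufl1 in members gave −0.0024 with no filter and −0.16 to 1.11 without 1 library (−0.051 without cKO replicate 2, −0.16 without WT replicate 1). Gzmc in members gave −0.95 (without cKO replicate 2) to 2.41. Over all gated CD8 cells Ufl1 gave −0.49 to 0.076 (without WT replicate 2), Pdcd1 −0.013 with thinned cells and −0.61 to 1.37 without 1 library (−0.097 without cKO replicate 2), Lag3 −0.33 to 1.25 and Havcr2 −0.27 to 1.45, all 3 lowest without WT replicate 1. The Gzmc interaction gave −5.34 to 2.63 (without cKO replicate 1). The cause was not tested. Of the named genes' values under other settings with every library in, 1123 kept their side of the threshold, 56 lost and 12 gained a call and 2 turned sign, and without 1 library 539 kept it, 74 lost and 12 gained a call and 9 turned sign. Receptor sharing stayed higher in members in every setting, by 11.5 to 17.3 percentage points for the beta, 6.42 to 10.4 for the alpha and 6.45 to 10.5 for both chains without 1 library. WT replicate 1, with 30 members, gave the least precise values.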

Other observations

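Members that carried their library's leading V segment pair were set beside the members with other pairs, as a description. A Havcr2 UMI was found in 75%, 73.7%, 55.6% and 54.8% of cells with the leading pair (4, 38, 9 and 73 cells) and in 28.1%, 46.9%, 33.3% and 50.6% of cells with other pairs (32, 96, 15 and 158 cells). A Gzmb UMI was found in 50%, 86.8%, 100% and 84.9% of cells with the leading pair, against 65.6%, 63.5%, 66.7% and 72.2% of the others. Depth differed as well, with medians of 17761, 13054, 5378 and 10252 UMIs in cells with the leading pair and 8109.5, 10096, 6778 and 10063 UMIs in the others, and its part in these shares was not tested.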
